A study of Homo sapiens with 12 samples.

Results

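The small leucine-rich proteoglycans (SLRPs) are secreted matrix proteins built on a core of leucine-rich repeats. The 10 genes described here are DCN, BGN, LUM, FMOD, OGN, EPYC, PRELP, OMD, ASPN and PODN. They were chosen by name, with earlier results of these data known, and all 10 were among the 28901 named genes of the expression table. Expression was measured by RNA-seq in ASC52telo hTERT, an established human line of adipose-derived stromal cells immortalised with telomerase, at day 14 of culture in adipogenic medium. All cells had received a lentiviral shRNA with a ZsGreen reporter and were sorted for ZsGreen, and the knockdown rests on a single linc-ADAIN hairpin set against a single scramble hairpin. The study compared scramble shRNA, scramble shRNA with LPS, linc-ADAIN shRNA (KD), and KD with LPS, with 3 libraries each. LPS, the bacterial endotoxin, was given at 100 ng/mL for 4 h. Linc-ADAIN is a long intergenic RNA of human adipose tissue, and the level of the RNA itself was not analysed here. The study describes its RNA-seq as a single experiment in triplicate, so the 3 libraries of a group are not independent experiments, and the SDs and p-values measure only the spread between these libraries.

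SLRPs bind collagen fibrils and set their diameter and spacing, and many of them also bind growth factors or cell-surface receptors. Most carry glycosaminoglycan chains, which are chondroitin or dermatan sulfate on decorin (DCN), biglycan (BGN) and epiphycan (EPYC), and keratan sulfate on lumican (LUM), fibromodulin (FMOD) and osteomodulin (OMD). In adipose tissue they are known mainly as products of stromal and progenitor cells. By sequence the family is split into classes, with DCN, BGN and asporin (ASPN) in class I, LUM, FMOD, PRELP and OMD in class II, EPYC and osteoglycin (OGN) in class III, and podocan (PODN) in class V.

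Most SLRP genes lie in clusters. On GENCODE release 44 (GRCh38), EPYC (chr12:90963682-91005026), LUM (chr12:91102629-91111494) and DCN (chr12:91140484-91183217) lie in a row on the minus strand of chromosome 12, with the keratocan gene KERA between EPYC and LUM. OGN (chr9:92383268-92404696), OMD (chr9:92412380-92424471) and ASPN (chr9:92456205-92482506) lie in a row on the minus strand of chromosome 9, and each of the 3 lies inside the span of CENPP, a kinetochore gene on the plus strand, with 0 shared exonic bases. FMOD (chr1:203340628-203351758, minus strand) and PRELP (chr1:203475806-203491352, plus strand) are neighbours on chromosome 1, while PODN (chr1:53062052-53085501, plus strand) and BGN (chrX:153494980-153509546, plus strand) lie apart from the others. PODN shares 466 exonic bases with an antisense lncRNA and 280 with the antisense pseudogene HIGD1AP11. The library kit was a stranded one, but whether the authors' counting used strand is not given in the sources used here, so counts of PODN are uncertain to that extent.

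RefSeq (GRCh38.p14) promoter windows matched 7 of the 10 members and were missing for DCN, LUM and OMD. The bases upstream of the gene start are shown for the member with the largest rise in KD, the member with the largest fall, and BGN, which was called in neither KD comparison, to let their base composition be compared. Capitals mark TATAAA or GGGCGG on either strand, so that the reverse strand shows as TTTATA or CCGCCC, and each line reads 5′ to 3′ in the direction of the gene.
EPYC, chr12:91005027-91005222, minus strand: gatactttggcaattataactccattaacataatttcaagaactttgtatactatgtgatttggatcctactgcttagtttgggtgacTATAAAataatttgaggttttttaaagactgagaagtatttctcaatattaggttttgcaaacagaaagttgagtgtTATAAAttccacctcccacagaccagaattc
OGN, chr9:92404700-92404949, minus strand: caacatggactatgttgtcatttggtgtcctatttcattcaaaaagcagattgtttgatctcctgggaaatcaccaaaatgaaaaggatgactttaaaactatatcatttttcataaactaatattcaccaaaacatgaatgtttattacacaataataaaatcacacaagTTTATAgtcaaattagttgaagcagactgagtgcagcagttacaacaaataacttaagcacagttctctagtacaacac
BGN, chrX:153494730-153494979, plus strand: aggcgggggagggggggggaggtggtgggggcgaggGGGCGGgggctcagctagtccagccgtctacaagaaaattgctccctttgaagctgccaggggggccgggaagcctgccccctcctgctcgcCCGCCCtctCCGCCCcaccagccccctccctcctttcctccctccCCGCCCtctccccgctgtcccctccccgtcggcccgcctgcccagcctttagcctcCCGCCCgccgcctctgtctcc
For EPYC the stretch stops where the longer GENCODE gene model begins, and OGN has another RefSeq start nearby whose window overlaps this one. Over the 250 bases upstream of the RefSeq start, the GC content was 35.6% for EPYC, 31.2% for this OGN start and 74.0% for BGN, beside a median of 58.0% over 35116 promoter windows. Base composition did not sort the members by their change in KD, since ASPN, also called in neither comparison, was at 32.4%, PODN, which fell, at 72.4%, and FMOD and PRELP, which rose, at 51.6% and 52.8%. TATAAA, searched on both strands, was in 10.7% of all those windows. It occurred at 162 and 85 bases before the RefSeq start of EPYC, which lies downstream of the stretch shown. In the OGN window it was at 79 bases before the start, on the opposite strand. GGGCGG, searched likewise, was in 42.6% of all windows and occurred at 5 places in that of BGN. CCAAT, which 32% of windows held, occurred in the EPYC window on the opposite strand at 48 bases before the start, outside the stretch shown. The RUNX letters TGTGGT (in 11% of windows), the AP-1 letters TGACTCA (4.2%), the E-box CACGTG (6.34%) and the C/EBP letters TTGCGC (6.34%) were in none of these 3 windows. The window of the other OGN start, not shown, held TGTGGT on the opposite strand at 79 bases before that start. These are matches of letters only, and nothing about binding was measured.

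Total counts ranged from 28.4 to 53.8 M per library (M, counts in units of 1e+06), with a median of 42.7 M. Each library was closer to those of its own group than to any other group, over 11811 genes (mean count 50 or more). The LPS genes CXCL8 and IL6 were higher in every LPS library than in the libraries of the same shRNA without LPS. Scramble replicate 3 was the exception among the members' values. In it OGN, OMD, PODN and ASPN were at 0.382, 0.351, 0.43 and 0.211 of the mean of scramble replicates 1 and 2, at or near the levels of scramble with LPS, while its CXCL8 (148 CPM) and IL6 (56 CPM) were close to those of scramble replicate 2 (152 and 55 CPM). CPM is counts divided by the library's TMM-scaled total and given per 1e+06. DCN in scramble replicate 3 was at 0.723 of the mean of replicates 1 and 2. Without LPS, the KD values of OGN, OMD, PODN, ASPN and DCN are given below with and without this replicate. LPS effects in scramble are given in the same way for OGN, OMD, PODN and FMOD.

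In scramble control, DCN was by far the most abundant SLRP mRNA. To compare genes, CPM was divided by the length in kb of 1 representative transcript. DCN was at 390 ± 71.1 CPM per kb (SD, n = 3), LUM at 47.2 ± 4.57, BGN at 38.8 ± 1.83 and FMOD at 10.4 ± 1.6, and the libraries of these 4 genes did not overlap. PODN at 6.09 ± 2.48, PRELP at 4.67 ± 0.561 and OGN at 4.54 ± 2.15 CPM per kb came next and could not be placed in order, since their libraries overlapped. OMD followed at 1.38 ± 0.675, and ASPN (0.213 ± 0.136) and EPYC (0.0213 ± 0.0370) overlapped at the bottom. DCN made up 88.1% to 90% of the summed SLRP counts of a scramble library and ranked from 26 to 41 among all genes by count. In KD the order of the first 3 was the same, but EPYC came next after FMOD at 14.6 ± 7.26 CPM per kb, between FMOD (36.9 ± 4.48) and PRELP (6.33 ± 1.39), with no overlap on either side, while BGN (38.5 ± 9.31) and FMOD overlapped. OGN, OMD and ASPN shared the lowest places in KD, at 0.329 ± 0.257, 0.427 ± 0.191 and 0.294 ± 0.163 CPM per kb. With LPS, FMOD at 45.1 ± 2.42 CPM per kb stood above BGN at 31.4 ± 6.64 in KD, without overlap, whereas BGN stood above FMOD in both scramble groups.

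**Figure D1:**
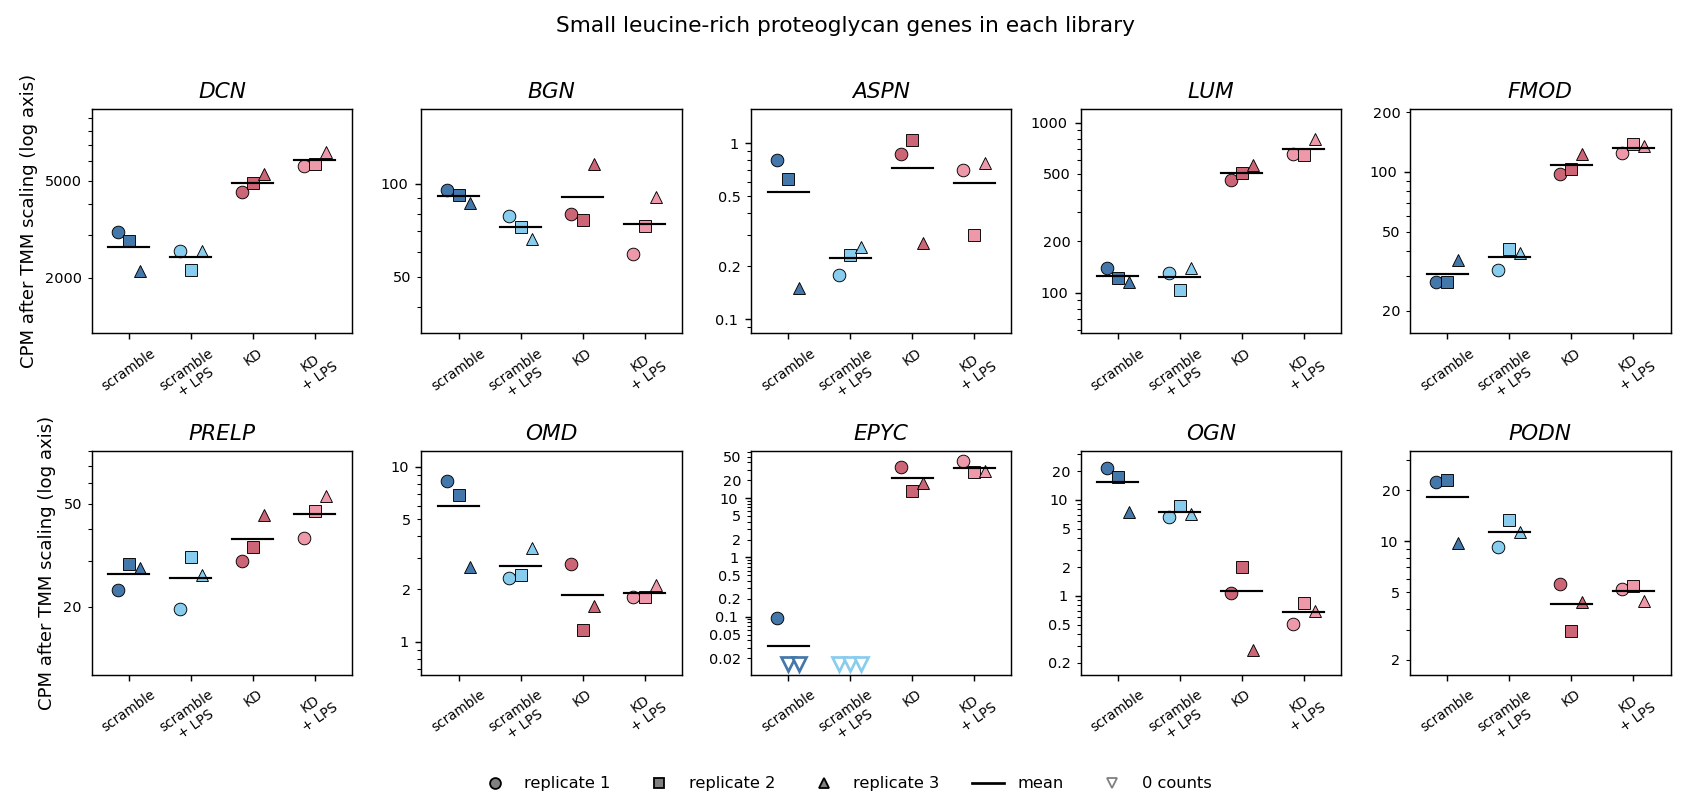
Level of each SLRP gene in the 12 libraries, in CPM after TMM scaling on a log axis, with the mean of each group as a line and open triangles at the bottom for libraries with 0 counts of EPYC. LUM, FMOD, DCN and EPYC lay higher in every KD library than in every scramble library, OGN and PODN lower, and scramble replicate 3 lay apart from replicates 1 and 2 for OGN, OMD, PODN and ASPN.

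linc-ADAIN KD without LPS changed SLRP mRNAs in both directions. EPYC, LUM, FMOD, DCN and PRELP were higher and OGN, PODN and OMD lower, while BGN and ASPN did not pass the test. All 10 members were tested. At an adjusted p under 0.05 from edgeR's quasi-likelihood test over 16217 genes, 5 members were higher, beside 12.1% of all genes tested, and 3 were lower, beside 15.1%. With a difference of at least 2-fold as well, 3 were higher and 3 lower, beside 4.28% and 3.49% of all genes. Since the members were chosen with earlier results known, these counts describe them and do not test the family as a set. The median log2 fold change over the members was 0.46 and over all genes 0.024. The SLRPs together took 0.292% ± 0.0515 of the counts in scramble and 0.598% ± 0.0550 in KD (SD, n = 3 each), and the libraries did not overlap. In RNA from whole cultures, a change in the share of cells that express a gene and a change in the RNA per cell cannot be told apart.

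In class I, DCN was the member that rose. Decorin binds type I collagen and sequesters TGF-β. DCN was at 3070, 2820 and 2130 CPM in the scramble libraries and at 4500, 4880 and 5330 CPM in KD. No KD library fell within the scramble range, and DCN had a log2 fold change of 0.88 (SE 0.117, 95% interval 0.625 to 1.136, edgeR adjusted p = 0.00015). Without scramble replicate 3 it was 0.73 (edgeR adjusted p = 0.00015). BGN, whose product binds collagen and can signal through Toll-like receptors once released from matrix, was at 95.1, 92 and 86.6 CPM in scramble and at 79.8, 76.2 and 116 CPM in KD. Its groups overlapped, and the 95% interval of the log2 fold change ran from -0.302 to 0.287 (edgeR adjusted p = 0.98). ASPN, which encodes a collagen-binding protein without glycosaminoglycan chains, had 42, 33 and 7 counts in scramble and 30, 56 and 11 in KD. Its counts were few and varied between libraries. The interval of its log2 fold change was wide, from -1.152 to 2.088, and a difference was not detected. The log2 fold change was 0.47 (edgeR adjusted p = 0.7), and 0.02 without scramble replicate 3 (edgeR adjusted p = 0.99).

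Class II held 3 members that rose and 1 that fell. LUM, for the keratan sulfate proteoglycan lumican, was at 140, 122 and 116 CPM in scramble and at 459, 508 and 560 CPM in KD. The KD libraries were all above scramble, with a log2 fold change of 2.02 (SE 0.0972, edgeR adjusted p = 9.7e-08), a 4.05-fold difference, and LUM ranked 24 by p among all genes tested. FMOD encodes fibromodulin, which binds collagen at the same region as lumican. It was at 27.8, 27.8 and 36 CPM in scramble and at 97.9, 104 and 123 CPM in KD, again without overlap, with a log2 fold change of 1.83 (SE 0.121, edgeR adjusted p = 6.4e-07), a 3.57-fold difference. PRELP, which can anchor basement membrane to the matrix below it, rose by less. It was at 23.2, 29.2 and 28.3 CPM in scramble and at 30, 34.2 and 45.4 CPM in KD. The groups did not overlap, but by a small margin, and the log2 fold change was 0.44 (SE 0.147, edgeR adjusted p = 0.042). PRELP passed the threshold only with all 6 libraries or without KD replicate 1. Leaving out any other library gave an adjusted p between 0.062 and 0.16. OMD, named for its place in mineralised tissue, was at 8.24, 6.94 and 2.66 CPM in scramble and at 2.77, 1.17 and 1.6 CPM in KD. Its groups overlapped through scramble replicate 3, and the log2 fold change was -1.70 (SE 0.414, edgeR adjusted p = 0.0094). Without scramble replicate 3 it was -2.06 (edgeR adjusted p = 0.0016).

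In class III the members moved in opposite directions. EPYC encodes epiphycan, a proteoglycan known from growth-plate cartilage. It had 5, 0 and 0 counts in the scramble libraries and 1173, 709 and 735 counts in KD. It was close to absent in every scramble library and well measured in every KD library, at 21.7 ± 10.8 CPM (SD, n = 3). The ratio of the summed counts, scaled by library size, was 616, with a 95% interval of 263 to 1900 that covers counting error only (edgeR adjusted p = 5.6e-07). All 5 scramble counts came from replicate 1, so the ratio rests on that library, and without it no ratio can be given (edgeR adjusted p = 3e-06). OGN, whose product osteoglycin, also called mimecan, is found in bone and many connective tissues, was at 21.8, 17.2 and 7.45 CPM in scramble and at 1.07, 2.02 and 0.272 CPM in KD. Every KD library was below every scramble library. The log2 fold change was -3.74 (SE 0.525, 95% interval -4.884 to -2.591, edgeR adjusted p = 0.00024) and was -4.08 without scramble replicate 3 (edgeR adjusted p = 0.00024).

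PODN, of class V, also fell. Podocan is known to restrain smooth muscle cell growth. PODN was at 22.3, 22.8 and 9.71 CPM in scramble and at 5.56, 2.93 and 4.35 CPM in KD, without overlap. Its log2 fold change was -2.10 (SE 0.312, edgeR adjusted p = 0.00035), and without scramble replicate 3 it was -2.42 (edgeR adjusted p = 5e-05).

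**Figure D2:**
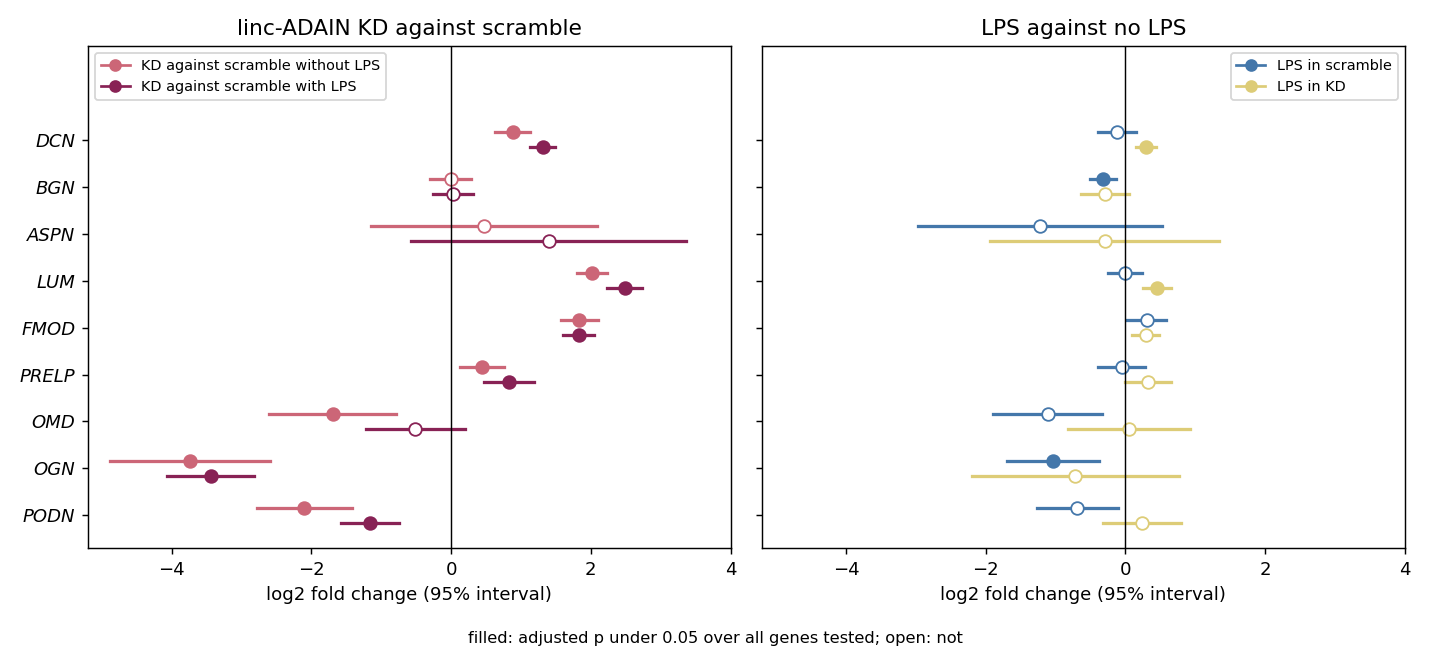
Log2 fold change of 9 SLRP genes with its 95% interval, for linc-ADAIN KD against scramble on the left and for LPS on the right; filled points passed an adjusted p of 0.05, and EPYC is left out for its size. LUM and FMOD lay near 2 and OGN below -3 in KD with and without LPS, while the LPS effects of all 9 genes lay between -1.22 and 0.46.

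With LPS present in both arms, the KD differences had the same sign as without LPS for all members but BGN. The libraries of this comparison are separate from those of the comparison without LPS. Of the 10 members, 5 were higher, beside 12.7% of the 15981 genes tested, and 2 were lower, beside 14.2%. At 2-fold or more, 4 were higher, beside 4.58% of all genes, and 2 were lower, beside 3.9%. The median log2 fold change was 1.07 over the members and 0.025 over all genes. SLRP genes took 0.260% ± 0.0245 of the counts in scramble with LPS and 0.714% ± 0.0469 in KD with LPS (SD, n = 3 each), without overlap.

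The members that were higher were EPYC, LUM, FMOD, DCN and PRELP. EPYC had 0 counts in all 3 scramble libraries with LPS and 1484, 1285 and 801 counts in KD with LPS. Set against a floor of 3 counts per library, it was at least 397-fold higher in KD (edgeR adjusted p = 3.7e-09). LUM was at 130, 104 and 139 CPM in scramble with LPS and at 652, 643 and 801 CPM in KD with LPS, a log2 fold change of 2.49 (SE 0.118, edgeR adjusted p = 5e-09). FMOD was at 32, 40.9 and 39.1 CPM and at 125, 138 and 135 CPM, a log2 fold change of 1.83 (SE 0.101, edgeR adjusted p = 1.8e-08). For FMOD the value with LPS was thus close to the 1.83 without it. DCN was at 2580, 2140 and 2570 CPM in scramble with LPS and at 5760, 5830 and 6540 CPM in KD with LPS, a log2 fold change of 1.31 (SE 0.0832, edgeR adjusted p = 6.5e-08). PRELP was at 19.7, 31.1 and 26.6 CPM and at 36.8, 47 and 53.5 CPM, a log2 fold change of 0.83 (SE 0.165, edgeR adjusted p = 0.0019). None of these 5 genes had overlapping groups. OMD and ASPN also had groups without overlap here but did not pass, and the share of all genes without overlap is not given. PRELP passed the threshold here with any single library left out (edgeR adjusted p at most 0.011).

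OGN and PODN were lower in KD with LPS. OGN was at 6.72, 8.65 and 7.19 CPM in scramble with LPS and at 0.509, 0.839 and 0.703 CPM in KD with LPS, which is 18 to 39 counts per library, a log2 fold change of -3.44 (SE 0.291, edgeR adjusted p = 1.1e-06). PODN was at 9.25, 13.3 and 11.3 CPM and at 5.21, 5.46 and 4.46 CPM, a log2 fold change of -1.16 (SE 0.191, edgeR adjusted p = 0.00045). Both pairs of groups were apart. OMD was at 2.33, 2.41 and 3.42 CPM in scramble with LPS and at 1.81, 1.81 and 2.11 CPM in KD with LPS, and although these libraries did not overlap, the interval of its log2 fold change, from -1.224 to 0.194, held 0 (edgeR adjusted p = 0.28). BGN was at 78.8, 72.2 and 66.1 CPM and at 59.1, 72.7 and 90.2 CPM, with an interval from -0.254 to 0.314 (edgeR adjusted p = 0.91). ASPN had 7, 7 and 11 counts in scramble with LPS and 25, 14 and 22 in KD with LPS, with an interval from -0.571 to 3.361 (edgeR adjusted p = 0.3). Its groups did not overlap, yet the test did not separate them.

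**Figure D3:**
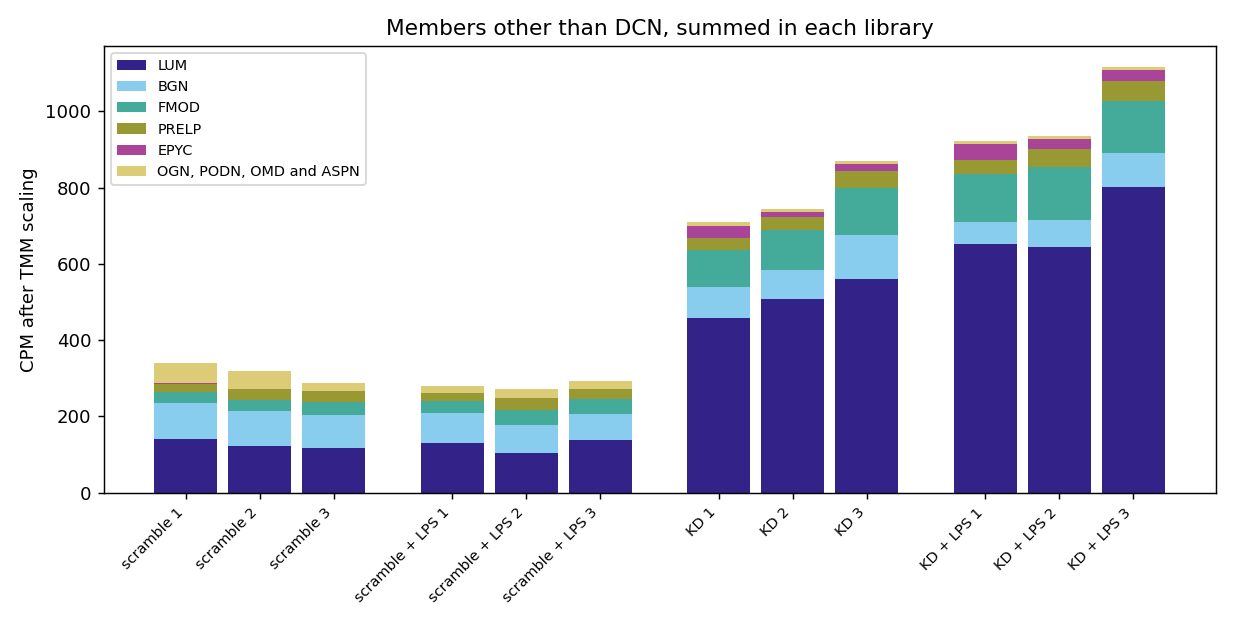
Summed level of the SLRP members other than DCN in each library, in CPM after TMM scaling, as stacked bars from 0. The sum ran from 273 to 339 CPM in the 6 scramble libraries and from 711 to 1120 CPM in the 6 KD libraries, with LUM the largest share in each.

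At the threshold used, BGN and OGN were lower with LPS in scramble cells, and DCN and LUM were higher with LPS in KD cells. In scramble cells, 9 members were tested, EPYC having only 5 counts in total, and 0 were higher, beside 5.9% of 15920 genes, while BGN and OGN were lower, beside 8.38%. The median log2 fold change of the members was -0.32 and that of all genes 0.020. BGN fell from 91.3 ± 4.32 to 72.4 ± 6.39 CPM (SD, n = 3 each), or -0.32 on the log2 scale (SE 0.0844, edgeR adjusted p = 0.025), with every LPS library below every library without LPS. Leaving out scramble replicate 1 or 2, or LPS replicate 2 or 3, ended the BGN call, with adjusted p values of at most 0.11. OGN had a log2 fold change of -1.03 (SE 0.3, edgeR adjusted p = 0.04), with groups that overlapped because scramble replicate 3 at 7.45 CPM lay within the LPS libraries. Without that replicate the log2 fold change of OGN was -1.36 (edgeR adjusted p = 0.00064), and without scramble replicate 1 or 2, or any of the LPS libraries, it was no longer past the threshold, with an adjusted p of at most 0.17.

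For OMD, PODN and FMOD the LPS call in scramble depended on scramble replicate 3 and on the method. With all libraries none of the 3 passed in edgeR, at log2 fold changes of -1.11 for OMD, -0.69 for PODN and 0.30 for FMOD (edgeR adjusted p = 0.059, 0.12 and 0.14). Without that replicate they were -1.46, -0.99 and 0.44 (edgeR adjusted p = 0.0034, 0.0029 and 0.042), so that 5 members were then called. The share of all genes called in that fit is not given here. With all libraries kept, OMD and PODN passed in DESeq2 (adjusted p = 0.016 and 0.043) and in edgeR with no filter on low counts (adjusted p = 0.015 and 0.029), and FMOD in neither. DCN and LUM were at 2430 ± 254 and 125 ± 18.2 CPM with LPS, against 2670 ± 487 and 126 ± 12.2 CPM without it (SD, n = 3 each), and neither passed with or without that replicate. PRELP (interval of the log2 fold change -0.386 to 0.283) and ASPN (-2.961 to 0.527) did not pass either.

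In KD cells, LPS was followed by higher DCN and LUM. Of 10 members 2 were higher, beside 5.32% of 16169 genes, and 0 were lower, beside 6.03%. The median log2 fold change was 0.27 over the members and 0.010 over all genes. DCN went from 4900 ± 413 to 6040 ± 432 CPM (SD, n = 3 each), or 0.30 on the log2 scale (SE 0.0675, edgeR adjusted p = 0.0085), and LUM from 509 ± 50 to 699 ± 88.7 CPM, a log2 fold change of 0.46 (SE 0.0936, edgeR adjusted p = 0.0045). In both the LPS libraries were all above the others, and both differences were under 2-fold. Without KD replicate 3 with LPS, DCN was not past the threshold (edgeR adjusted p = 0.055). FMOD went from 108 ± 13.2 to 133 ± 7.13 CPM, a log2 fold change of 0.29 that missed the threshold (edgeR adjusted p = 0.058) and passed it without KD replicate 3 (edgeR adjusted p = 0.012). EPYC went from 21.7 ± 10.8 to 32.6 ± 8.14 CPM, with overlapping groups and an interval of the log2 fold change from 0.031 to 1.157 (edgeR adjusted p = 0.19). KD replicate 1, the highest of its group at 33.8 CPM, decided this value, and without it the log2 fold change was 1.05 (edgeR adjusted p = 0.0035). Of the fits that left out a library, PRELP passed in that without KD replicate 3 (edgeR adjusted p = 0.047) and in no other. With all libraries kept, FMOD also passed in DESeq2 (adjusted p = 0.019), and FMOD and EPYC in edgeR with no filter on low counts (adjusted p = 0.02 and 0.013). The intervals for BGN (-0.634 to 0.05), OGN (-2.197 to 0.768), OMD (-0.82 to 0.924), ASPN (-1.935 to 1.343) and PODN (-0.313 to 0.8) all held 0. BGN and OGN, at log2 fold changes of -0.29 and -0.71 in KD, had the same sign as in scramble. Neither had an interaction that passed, so their LPS responses were not shown to differ between scramble and KD.

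Whether the KD effect differed with LPS was tested as an interaction over all 12 libraries. None of the 10 members passed in edgeR, and 0 passed in DESeq2, where edgeR called 0.943% of 17173 genes with a positive and 0.332% with a negative interaction. Before adjustment, edgeR's test put 4 members under 0.05, all with a positive interaction, namely LUM, DCN, PODN and OMD, whose adjusted p values were 0.19, 0.25, 0.35 and 0.42. By p, OMD, the last of these 4, ranked 1717 among the 17173 genes tested, so many other genes lay under the same unadjusted cut. A positive value means a larger rise in KD for LUM and DCN, and a smaller fall for PODN and OMD. The interaction of DCN was 0.44 on the log2 scale (95% interval 0.107 to 0.766, edgeR adjusted p = 0.25) and that of LUM 0.47 (95% interval 0.140 to 0.806, edgeR adjusted p = 0.19). Without scramble replicate 3, DCN passed at 0.58 (edgeR adjusted p = 0.028), the only member to pass when any single library was left out. The interval for FMOD ran from -0.341 to 0.337 on the log2 scale. For OGN it ran from -1.081 to 1.704 and for PODN from 0.130 to 1.771, so that differences of up to these sizes could not be told from none after adjustment.

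The clustered genes and their neighbours were set side by side, as a description of a few genes. The 3 members of the chromosome 12 cluster, EPYC, LUM and DCN, were all higher in KD with and without LPS. KERA, between EPYC and LUM, encodes the corneal proteoglycan keratocan and had 36 counts in all 12 libraries together, with an interval of its log2 fold change from -2.334 to 5.353 without LPS. LUM and DCN lie 29.0 kb apart and EPYC and LUM 97.6 kb apart. On chromosome 9, OGN was lower in both comparisons, OMD 7.7 kb away was lower without LPS, and ASPN 31.7 kb further was called in neither. ECM2, which borders ASPN and encodes a matrix protein related to the SLRPs, had a log2 fold change of -0.61 without LPS (SE 0.184, edgeR adjusted p = 0.027) and of 0.11 with LPS (edgeR adjusted p = 0.6). CENPP, whose span contains all 3 members there, had -0.05 and -0.09 (edgeR adjusted p = 0.93 and 0.89). IPPK, on the far side of ECM2, had -0.04 and 0.06 (edgeR adjusted p = 0.85 and 0.8), and NOL8 had 0.04 and -0.18 (edgeR adjusted p = 0.78 and 0.18). Farther out, SPTLC1 was higher at 0.27 and 0.47 (edgeR adjusted p = 0.017 and 0.00099) and BICD2 lower at -0.29 and -0.35 (edgeR adjusted p = 0.0087 and 0.0045). On chromosome 1, FMOD and PRELP, 124.0 kb apart, were both higher, OPTC beside PRELP had 9 counts in all 12 libraries, and ATP2B4, a calcium pump gene downstream, was lower at -0.91 and -1.06 (edgeR adjusted p = 5.3e-06 and 5.3e-07).

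**Figure D4:**
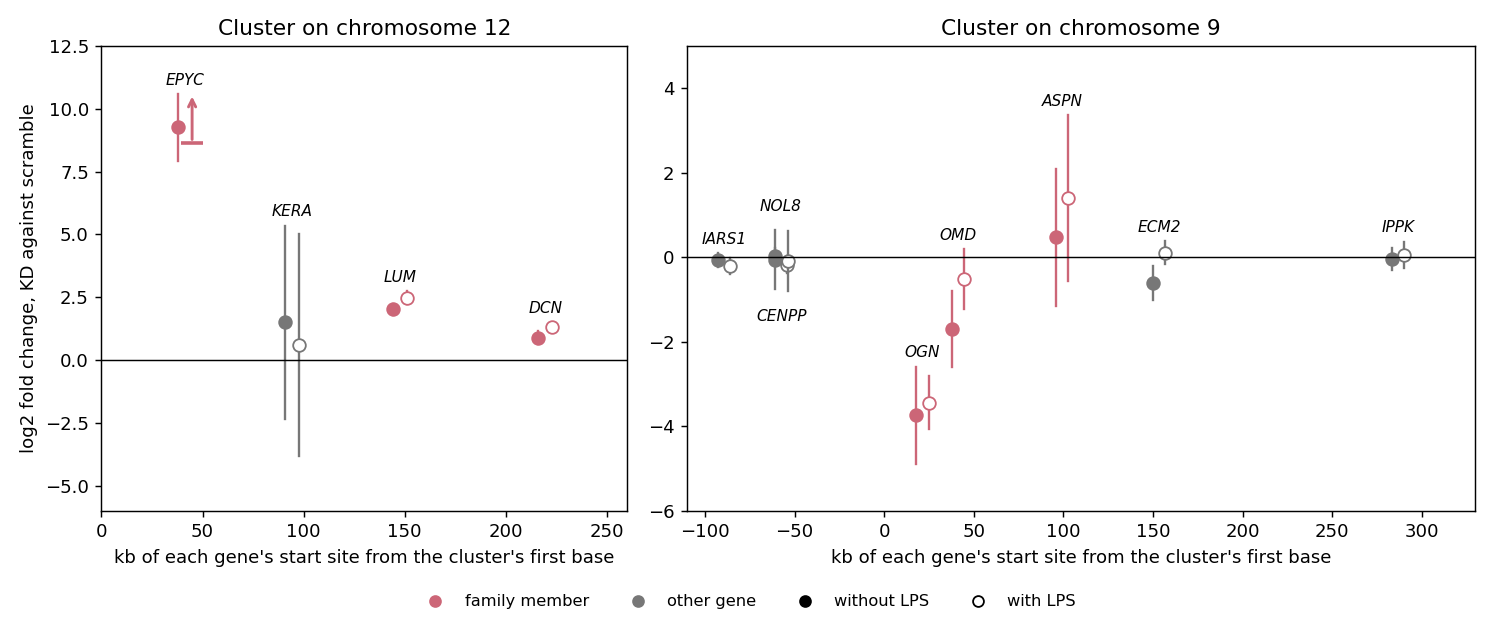
Log2 fold change of linc-ADAIN KD against scramble for SLRP genes and their protein-coding neighbours, plotted against the distance in kb of each gene's start site from the first base of the cluster, with 95% intervals, filled without LPS and open with LPS. EPYC, LUM and DCN lie above 0 on chromosome 12 and OGN below 0 on chromosome 9, while CENPP, NOL8, IARS1 and IPPK lie near 0 and SPTLC1 and BICD2 fall outside the plotted range; the arrow marks the lower bound for EPYC with LPS.

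For 9 members with a mean of at least 50 counts in the 12 libraries, ASPN being below it, the genes with the most similar pattern were sought among 11810 others, by the root mean square difference of log2 CPM centred on each gene's mean over the 12 libraries. This difference can be larger for a gene that varies more. The spread of the members' own centred values ran from 0.247 for BGN to 2.85 for EPYC, so closeness is not ranked between members. FMOD was nearest to EFEMP1 (0.099 on the log2 scale), which encodes fibulin-3, and then to CSRP2 (0.123). EFEMP1 was at 291 ± 21.2 CPM in scramble, 362 ± 1.21 with LPS, 1010 ± 87.9 in KD and 1280 ± 108 in KD with LPS (SD, n = 3 each). BGN was nearest to MIER2 (0.117) and to LOXL2 (0.127), a collagen cross-linking oxidase. LUM was nearest to RGCC (0.18) and to the thyroid hormone receptor gene THRB (0.186). PRELP was nearest to MT1JP (0.134) and UBOX5 (0.153). Of the falling members, OGN, with a spread of 1.63, had PODXL (0.51) and AADAC (0.537). OMD had APOD (0.22) and ISLR (0.285), and PODN had ABI3BP (0.235) and TNXB (0.33). Like OMD and PODN, both APOD (154 ± 68.5 CPM) and ABI3BP (140 ± 54.8 CPM) were spread in scramble. EPYC was nearest to ZNF385B (0.423), which was listed at 0 in all 6 scramble libraries and was at 30.4 ± 3.98 CPM in KD, and to PLXDC2 (0.425), at 0.224 ± 0.144 CPM in scramble and 26.4 ± 2.53 CPM in KD. The points of these comparisons are the same 12 libraries, and no shared function follows from them.

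Few of the other SLRP genes of the family were expressed. Of 8 genes (KERA, OPTC, CHAD, CHADL, NYX, TSKU, PODNL1 and ECM2), 4 had enough counts for a test. KERA was among these 4, with 36 counts in all 12 libraries together. KD without LPS raised 0 of the 4 and lowered 2, beside 12.1% and 15.1% of all genes tested. With LPS it raised 0 and lowered 1, beside 12.7% and 14.2%. TSKU, which encodes the secreted protein tsukushi, fell with KD at a log2 fold change of -1.26 (SE 0.0959, edgeR adjusted p = 1.8e-06) and with LPS present of -1.95 (SE 0.119, edgeR adjusted p = 4.8e-08), and unlike the 10 members it passed the interaction test (-0.68, edgeR adjusted p = 0.044). PODNL1, the closest relative of PODN, ranged from 6.08 to 9.26 CPM in scramble and from 5.81 to 11.1 CPM in KD, with overlapping groups. CHAD and NYX had 0 counts in every library. These 3 were named after their values were seen.

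Genes that build the glycosaminoglycan chains changed in both directions with KD. The counts of called genes in this and the following lists stand beside 12.1% of all genes higher and 15.1% lower in KD without LPS, and 12.7% and 14.2% with LPS. For chondroitin and dermatan sulfate, 6 of 21 tested genes were higher and 7 lower without LPS, and 6 and 6 with it. CSGALNACT1 and CSGALNACT2, which start the chondroitin chain, rose at log2 fold changes of 1.40 and 0.88 without LPS. XYLT1, which adds the first sugar of the linkage to the core protein, had -0.95 (edgeR adjusted p = 2.2e-06) and CHST3, a chondroitin sulfotransferase, -1.51 (edgeR adjusted p = 1.5e-07). DSE, the epimerase that turns chondroitin into dermatan sulfate, rose slightly, by 0.40 (edgeR adjusted p = 0.0031). For keratan sulfate, the chain of LUM and FMOD, 0 of 10 genes were higher and 4 lower in each KD comparison. The 4 included CHST4 in both, at a mean of 28.8 and 22.7 counts per library, and CHST1 with LPS, at a mean of 5.67. B3GNT2, which extends the chain, fell by 1.21 without LPS (edgeR adjusted p = 7.5e-05) and by 0.89 with it (edgeR adjusted p = 2.5e-05). The medians of the chondroitin list were -0.05 and 0.12 and of the keratan list -0.01 and -0.27, beside 0.024 and 0.025 over all genes.

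The collagens and proteases that act together with SLRPs were also mixed. Of 10 collagen genes, which were fibrillar, fibril-associated or of collagen VI, 3 were higher and 4 lower in each KD comparison. In both, the lower ones were COL5A1 and the collagen VI genes COL6A1, COL6A2 and COL6A3. The higher ones were COL1A1, COL3A1 and COL12A1. COL1A1 and COL3A1, ligands of decorin, were higher without LPS at 0.66 and 0.52 (edgeR adjusted p = 0.0073 and 0.0011), and COL6A1 and COL6A2 were lower at -0.91 and -0.79 (edgeR adjusted p = 6.2e-06 and 3.3e-05). Among 11 tested proteases and their helpers, 2 were higher and 4 lower without LPS, and 3 and 4 with it. MMP3, a stromelysin that can cleave decorin, rose at 2.52 without LPS and 4.30 with it (edgeR adjusted p = 1.1e-07 and 2.6e-09). LPS lowered MMP3 in scramble (-1.82, edgeR adjusted p = 1.9e-05) and left it at -0.05 in KD (edgeR adjusted p = 0.88). Its interaction passed (1.78, edgeR adjusted p = 0.00062), as did that of ADAMTS4 in the other direction (-0.73, edgeR adjusted p = 0.016). MMP14, which can cleave lumican, rose at 0.60 and 0.88, while ADAMTS5 fell by 1.25 and 1.17.

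Among the receptors and growth factors known to bind SLRPs, 17 of 18 listed genes were found, and 3 were higher and 5 lower without LPS, and 8 and 4 with LPS, with medians of 0.17 and 0.67. TLR4, a receptor for released biglycan and decorin as well as for LPS, had -0.06 without LPS (edgeR adjusted p = 0.8) and 1.02 with it (edgeR adjusted p = 0.00062), and its interaction passed (1.09, edgeR adjusted p = 0.03). LPS lowered TLR4 in scramble (-0.84, edgeR adjusted p = 0.0045), and in KD its effect did not pass (0.23, edgeR adjusted p = 0.43). CCN4, a secreted protein that binds decorin and biglycan, rose at 1.56 and 0.93 (edgeR adjusted p = 6.8e-05 and 0.00038). MET, a receptor that decorin antagonises, fell by 0.63 and 0.72, and TGFB1 fell by 0.64 and 0.76. With LPS in scramble, 1 of 16 tested genes of this list was higher and 6 lower, beside 5.9% and 8.38% of all genes, and with LPS in KD 3 of 17 were higher and 3 lower, beside 5.32% and 6.03%. CD44, the hyaluronan receptor, rose with LPS in scramble (0.65, edgeR adjusted p = 0.00019) and in KD (0.86, edgeR adjusted p = 2.2e-07).

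Markers of cell types moved with KD beside the SLRP genes, and their part in the SLRP differences was not tested. Of 8 adipocyte markers, 0 were higher and 5 lower in KD without LPS, and 0 and 6 with LPS. Without LPS, FABP4 fell by 1.65 (edgeR adjusted p = 0.00071) and ADIPOQ by 1.39 (edgeR adjusted p = 0.0094). PPARG and PLIN1 had log2 fold changes of -0.87 and -1.14 (edgeR adjusted p = 0.0023 and 0.014), and CEBPA did not pass (-0.41, edgeR adjusted p = 0.32). The study reports the opposite direction by qPCR and western blot, for shRNA KD in the same line at the same day. There, PPARγ, perilipin 1, FABP4, C/EBPα and adiponectin were higher in KD, and lipid storage was greater. The reason for this difference was not tested. The summed adipocyte markers ran from 2800 to 3920 CPM in scramble, 3330 to 3770 in scramble with LPS, 558 to 1650 in KD and 467 to 1090 in KD with LPS. LPL, a defining adipocyte gene, had at most 82 counts in any library. Of 7 tested stromal and preadipocyte markers 2 were higher and 3 lower in each KD comparison. The 9 listed summed to 2990 to 3060 CPM in scramble and 2290 to 2340 CPM in KD, where THY1 fell by 2.37 and ENG by 1.36 while DPP4 rose at 2.07, and DLK1 had 0 counts throughout. Among 6 chondrocyte markers 1 was higher and 1 lower in KD without LPS. ACAN, for the cartilage proteoglycan aggrecan, was at 0.525 ± 0.0453 CPM in scramble and 12.1 ± 2.94 CPM in KD (log2 fold change 4.52, edgeR adjusted p = 1.5e-07). SOX9, the chondrocyte transcription factor, had 7 to 1067 counts per scramble library, 3 to 592 in scramble with LPS, 1 in each KD library and 0 to 237 in KD with LPS, and COL2A1 was listed at 0 in all libraries with LPS. The summed chondrocyte markers were 26.1, 19.1 and 1.89 CPM in scramble, so that they too were low in scramble replicate 3, and ran from 10.7 to 15.6 CPM in KD.

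Of the other cell types, osteoblast markers (1 of 3 tested higher, 0 lower, in KD without LPS) summed to 43.2 to 49.6 CPM in scramble and 44.9 to 55.6 CPM in KD, with ALPL higher (3.03-fold, edgeR adjusted p = 0.0013) and SP7 at 5 counts or fewer. Tendon markers (0 of 3 higher, 1 lower) summed to at most 2.13 CPM in any library, and endothelial markers (0 of 2 higher, 1 lower) to 15.3 to 18.9 CPM in scramble and 8.5 to 9.28 CPM in KD, with CDH5 at 3 counts or fewer. Smooth muscle and pericyte markers (0 of 5 higher, 3 lower) summed to 83 to 104 CPM in scramble and 27.8 to 34.5 CPM in KD, led by lower CNN1 (-2.83, edgeR adjusted p = 6.2e-06) and CSPG4 (-2.23, edgeR adjusted p = 8.3e-07). Macrophage markers (1 of 4 higher, 1 lower) summed to 57.2 to 60.5 CPM in scramble and 88.2 to 117 CPM in KD, with CD163 at 4.33 ± 1.12 and 68.6 ± 13.7 CPM, CD68 lower (-0.78, edgeR adjusted p = 5.3e-05) and PTPRC, the common leukocyte gene, at 12 counts or fewer in every library.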

How the data were processed

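RNA-seq libraries of poly(A) RNA from 12 samples were analysed from the table of estimated counts that the authors deposited, made with kallisto (0.44.0 in the submitters' processing notes, which also name bcl2fastq 2.19 and DESeq2 1.32.0) and summed by gene name. The annotation release and strand setting are not given in the sources used here. Reads assigned to no named gene were left out (0.235% to 0.306% of a library). Each comparison tested the genes whose counts summed to 10 or more in its libraries with edgeR 4.0.16 (R 4.3.3), with TMM scaling, a quasi-likelihood F test and Benjamini-Hochberg adjustment over all genes tested. A 2-fold limit was applied as a second rule. CPM was taken after TMM over 12 libraries, and per kb from the Ensembl canonical transcript. A count floor of 3 per library was used for genes at 0. Intervals of count ratios cover counting error only. The script was tested on simulated data. The members and gene lists were chosen with earlier results of these data known. Genes named were the members, cluster neighbours, the 2 nearest genes to each member in pattern, defining cell type markers and, per list and comparison, at most 2 top risers and 2 top fallers among called genes averaging 50 counts or more. The genes nearest to DCN in pattern are not reported here. Alternatives were DESeq2 1.42.0, other scalings and filters, a fit of all 12 libraries, a replicate block and leaving out each library.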

Additional observations from a re-analysis of the deposited data

How the results depend on the processing

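Of 49 member results, 27 kept their direction and side of the threshold in every alternative run. In the KD comparisons the number of members called stayed within 1.5 times the 8 and 7 given. The number called for LPS in scramble, 2, was 4 with DESeq2, 4 with no filter on low counts, 0 with all 12 libraries fitted together, and 0 to 5 with a library left out. For LPS in KD it was 2, and 4 with no filter, 1 with all 12 libraries and 1 to 4 with a library left out. For the interaction it was 0 to 1 with a library left out. Over all genes the interaction called 219, 475 with DESeq2, 431 with no filter and as few as 92 without scramble replicate 2, and LPS in scramble called 2274 and as few as 1187 without that library. With a replicate block the number of members called was 5 for LPS in scramble, where FMOD, OMD and PODN gained a call, and 6 for LPS in KD, where BGN, FMOD, EPYC and PRELP did. Calls over all genes for LPS with the replicate block, DESeq2 or no filter are not given here. The member counts of those fits are therefore not read as particular to the members. Whether replicate numbers pair the libraries could not be decided from 3 libraries per group. The correlations of same-numbered deviations ran from -0.126 to 0.273, and not every pair passed 0.1 in any comparison. For LPS in scramble each library correlated best with its own number, which is a hint from the data only. Values near 0 changed sign: BGN in KD without LPS was 0.0969 by library size only, LUM with LPS in scramble 0.0011 with filterByExpr, and FMOD in the interaction 0.0034 with the replicate block. With a library left out, log2 fold changes ran from -0.22 to 0.10 for BGN in KD without LPS, -0.14 to 0.17 with LPS, -0.0917 to 0.11 for LUM and -0.20 to 0.11 for PRELP with LPS in scramble, -1.18 to 0.0295 for OGN, -0.20 to 0.45 for OMD and -0.70 to 0.0521 for ASPN with LPS in KD, and in the interaction -0.14 to 0.079 for FMOD, -0.16 to 1.11 for OGN and -0.12 to 0.24 for BGN. The cause was not tested. ASPN, at 7 to 56 counts per library, and OGN in KD without LPS, at 11 to 109, had few counts that varied between libraries.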
